A study of Danio rerio with 13 samples.

Results

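Zebrafish (Danio rerio) embryos injected with a morpholino against SMN, the survival motor neuron protein, were compared with embryos given a control morpholino. The data are the 6 microarrays whose titles name the SMN MO, of 13 arrays in the series, and the 18964 of 23232 table rows that held a value on every one of these 6. The other 4268 rows held none. A morpholino (MO) is a synthetic antisense oligonucleotide that is injected into the egg and binds a chosen transcript, so that the transcript is not translated or not spliced correctly. The effect is transient, reaches every tissue and seldom removes the protein entirely. The sources used here do not say which of these steps the SMN MO blocks, how many embryos made up a sample and whether the replicates came from separate clutches.

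SMN MO embryos were injected at the 1 to 2 cell stage and collected whole at 48 hours after fertilisation, as 6 RNA samples labelled biological replicates. Their RNA carried the Cy5 dye. On each array it was hybridised against the same Cy3-labelled reference, RNA of embryos of that age that had received a control MO, made by pooling 6 batches into a single sample. The remaining 7 arrays, from Gemin2 MO embryos against that same pool, enter below only where their spread is used as an alternative. With 1 pool and no swapped dyes, a ratio that differs from 0 holds the effect of the SMN MO, any deviation of the pool and any dye bias, and these cannot be told apart. P-values measure the spread between the 6 samples.

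SMN is the central subunit of a complex with the Gemin proteins that loads the heptameric ring of Sm proteins onto small nuclear RNAs, the RNA cores of the spliceosome. The ring is prepared by a methyltransferase complex, the methylosome, and the finished particles return to the nucleus to splice messenger RNA. Too little SMN causes spinal muscular atrophy in humans, in which motor neurons are lost first, and in zebrafish it is known for shortened and branched motor axons. Splicing of minor introns, axonal messenger RNA transport, the actin cytoskeleton and the neuromuscular junction have each been studied as points where low SMN acts.

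The values were read as log2 ratios, a base that nothing states and on which the folds below rest. A positive value likely means more transcript in the SMN MO embryos than in the control pool. That direction was taken from the labelled dyes and from the order of names in the series design, and nothing states it for the values themselves. The labelled tissue could not be checked against its markers, since a ratio carries no level. In whole embryos, fewer cells of a type and less RNA per cell cannot be told apart.

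The 6 arrays measured similar profiles. Their medians were between 0.0369 and 0.0849 and their SDs over rows between 0.851 and 1.18. Replicates 2, 5 and 6 were the widest, with SDs of 1.07, 1.14 and 1.18, and replicates 1, 3 and 4 the narrowest, with 0.886, 0.851 and 0.882. Each array correlated with the mean of the other 5 at a Pearson's r between 0.706 for replicate 1 and 0.868 for replicate 6, across rows that share arrays and pool and are not independent. Replicates 1 to 3 and replicates 4 to 6 differed in part from each other, as described further on, and are called the first and the second set. The labels do not name such sets. This division was known from earlier results of the same data, so the difference between the sets is described and not tested.

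Gene symbols in this table are the annotation of a row, and the values did not bear them out. Among the rows with values, 10363 carried 1 symbol and 8601 carried none. Symbols are those updated as described under processing, and the pairs below were formed on them. Where 2 rows with different values were annotated to the same gene, their mean log2 ratios were unrelated: over 2108 such pairs from 1415 genes, Pearson's r was 0.00125, and 49.9% of pairs had the same sign. Of the 477 pairs in which both rows passed the test described next, 49.7% had the same sign. For comparison, the mean of a single row in the first set correlated with its mean in the second set at r = 0.756 across the 18964 rows.

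**Figure D1:**
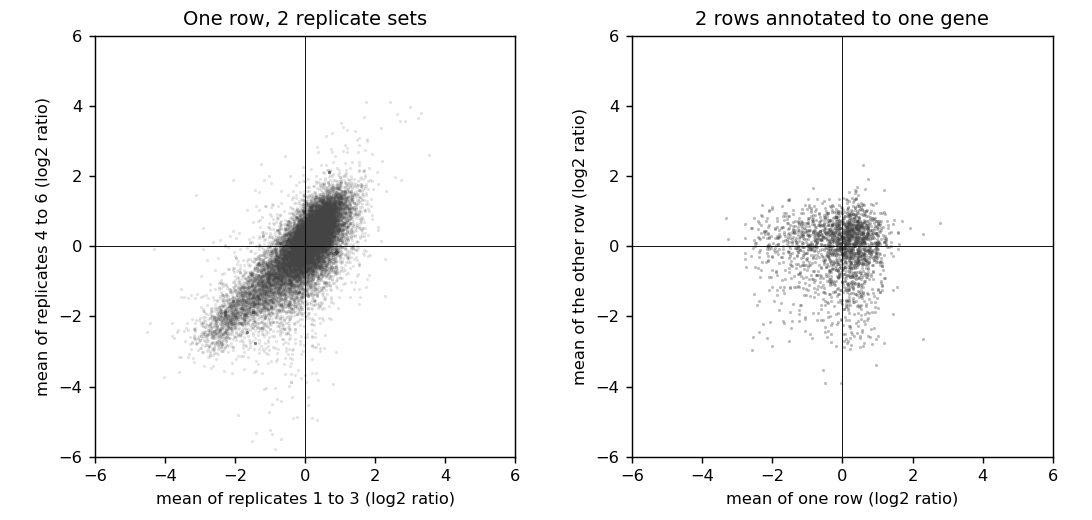
Left, the mean log2 ratio of each of the 18964 rows in replicates 1 to 3 (horizontal axis) and in replicates 4 to 6 (vertical axis). Right, the mean log2 ratios over 6 arrays of 2 rows annotated to the same gene, for 2108 pairs; the left cloud lies along the diagonal (r = 0.756) and the right cloud does not (r = 0.00125).

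The genes spotted most often show this directly. The table held 371 rows whose 6 values repeated another row exactly, in 42 distinct profiles, and all 14 of those profiles with a symbol had a single symbol on all their rows. For gapdh, a glycolytic enzyme often used as a standard, 14 rows shared a mean of -1.69, while 2 single rows were at -0.45 and 0.86, and each of these 3 values passed the test. For actb2, a cytoplasmic beta-actin gene likewise used as a standard, 172 rows shared a mean of 0.37, 7 shared -2.12, 7 shared -0.43, and further rows were at -0.27 and 0.01. Neither standard gave 1 value across its rows. A gene name below therefore stands for a row annotated to that gene, and that its transcript was measured there is not established.

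The first question is how much of the profile moved away from the control pool. Each row's mean over the 6 arrays was tested against 0 with limma, two-sided, with Benjamini-Hochberg adjustment over all 18964 rows and a threshold of 0.05. Of these rows 9101 passed (48.0%), 4561 higher (24.1%) and 4540 lower (23.9%), where 10474 had an unadjusted p under 0.05. A single sign on all 6 arrays was held by 8151 rows (43.0%), 4101 of them positive and 4050 negative, and by 7508 of the rows that passed. The smallest mean to pass was 0.36 in size. The median SD between arrays was 0.448 and the median SE 0.184. Rows with a symbol passed in 47.9% of cases and rows without one in 48.1%.

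Rows that fell did so by more than rows that rose. The median mean log2 ratio was -1.18 among lower rows, a 2.26-fold difference, and 0.73 among higher rows, a 1.66-fold difference. A log2 ratio of 1 or more in size was reached by 912 higher and 2735 lower rows, of 2 or more by 30 higher and 770 lower rows, and of 3 or more by 8 higher and 28 lower rows. Over all rows the 5th percentile was -1.87 and the 95th was 0.99, around a median of 0.08. If the ratio ran the other way, the larger changes would be the rises.

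**Figure D2:**
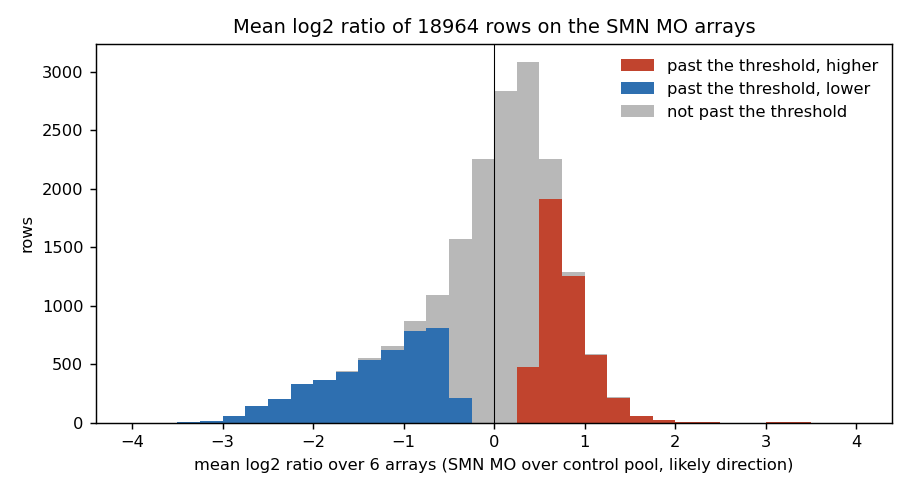
Histogram of the mean log2 ratio over 6 arrays for 18964 rows, in bins 0.25 wide. Red and blue are the 4561 higher and 4540 lower rows past the threshold, grey the rest, stacked; the lower side reaches past -2 with 770 rows where the higher side has 30.

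These counts depend on how far the replicates are independent. With each set as a random block and a within-set correlation of 0.291, pooled over all rows, 5855 rows passed, 2456 higher and 3399 lower. When a change beyond 1.2-fold was asked for, 5844 passed, 2392 higher and 3452 lower.

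The next question is whether the same rows moved in both sets of replicates. The set means had the same sign in 14535 rows, 76.6% of all. Both sets share the control pool and the dye order, so that agreement between them also holds whatever the pool and the dyes contribute. Agreement grew with size. Among 5561 rows with a first-set mean under 0.25 in size, 59.3% kept their sign in the second set, among 5346 rows from 0.5 to 1 it was 83.3%, and among 769 rows from 2 to 3 it was 98.7%. For those 769 rows the median was 2.33 in the first set and 2.09 along the same direction in the second.

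Tested on the first set alone, 6007 rows passed (31.7%), and on the second alone 7480 (39.4%). Both fits called 4012 rows with the same sign, which is 66.8% of the first set's calls and 53.6% of the second's. Of these, 1329 were higher and 2683 lower. A further 39 rows passed in both sets with opposite signs. The second set was the wider, with an SD of set means of 0.975 over rows, against 0.848 in the first. The 3 values of one set lay wholly above or below the 3 of the other in 4375 rows (23.1%).

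Single arrays showed the same division in part. Replicates 2 and 6, of different sets, correlated at 0.783, above every pair within the first set. Correlations of the rows (Pearson's r) lay between 0.699 and 0.778 for the 3 pairs within the first set, between 0.675 and 0.787 for the 3 pairs within the second, and between 0.492 and 0.783 for the 9 pairs across the sets, with medians of 0.713, 0.768 and 0.627. The first principal component of the 6 arrays held 74.1% of the variance, with all arrays on the same side. The second held 10.1% and had replicates 1 to 3 on one side and replicates 4 to 6 on the other.

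Among rows with a symbol and a mean of opposite sign in the sets, the 4 furthest from 0 in their weaker set were annotated to mfap1, a spliceosomal protein, barhl2, a homeobox gene of the retina and forebrain, the nucleoporin gene nup50 and the Mediator subunit gene med15. The barhl2 row read 3.49, 4.24 and -0.88 on replicates 1 to 3 and -0.97, -1.27 and -2.02 on replicates 4 to 6. The mfap1 row read -0.65, 4.75 and 0.58, then -2.03, -0.87 and -1.45. Within the first set of each of these rows the 3 arrays disagreed in sign, while the second set of each was all below 0. The nup50 row read 0.33, -4.55 and 0.46, then 2.26, 4.18 and 0.61, and the med15 row 3.64, 0.68 and 0.29, then -0.76, -2.99 and 0.09. For these rows the 6-array test did not pass, with adjusted p between 0.617 and 0.955 in limma.

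Some rows were far from 0 on every array. Rows with 1 symbol were ranked by the array on which they lay nearest to 0, and the 12 furthest in each direction are described here. The ranking gave the values, so they are a description. The 12 highest had means between 1.63 and 3.44 and no array under 1.33, and the 12 lowest had means between -2.58 and -3.59 and no array above -1.93. Their adjusted p in limma was between 5.9e-05 and 0.00030, and the SD between arrays was between 0.257 and 1.09 (n = 6). The next row on the high side had its weakest array at 1.33 and the next on the low side at -1.92, so the cut at 12 marks no step.

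The row furthest above 0 was annotated to trappc3, a subunit of the TRAPP complex that tethers vesicles. It read 3.03, 3.30, 3.35, 2.54, 4.43 and 3.98 on replicates 1 to 6. All 6 values were high, and the lowest was that of replicate 4. The row of mest, a hydrolase-family gene that is imprinted in mammals, read 2.39, 2.81, 3.37, 3.03, 4.66 and 3.00, and that of nanos1, an RNA-binding repressor of translation, 2.32, 3.07, 2.73, 3.15, 4.28 and 3.34. Replicate 5 was the highest array on each of these 3 rows. Rows of ppid, a cyclophilin that works with Hsp90, and of praf2, a membrane protein of the prenylated Rab acceptor family, had means of 3.21 ± 1.09 and 3.28 ± 1.08 (SD, n = 6), with replicates 5 and 6 above the other 4 on each.

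The other 7 high rows were lower in mean and included genes of stress and transcription. The row of nfe2l2a, an Nrf2 transcription factor of the oxidative stress response, was at 2.78 ± 0.95 (SD, n = 6), and the gene's other row was at 0.67 (adjusted p = 0.0301 in limma). The ets1 row, of an ETS transcription factor, was at 1.63 ± 0.41 and the other ets1 row at 0.64 (adjusted p = 0.0165). The row of cav2, a caveolin, was at 1.92 ± 0.47 with its other row at 0.72 (adjusted p = 0.00318). For these 3 genes both rows rose, by different amounts. Of all pairs in which both rows passed, 49.7% had the same sign. Matching signs of 2 rows, here or below, therefore do not bear out a symbol. Single rows stood for tigarb, a phosphatase gene related to the p53-induced regulator of glycolysis, at 1.73 ± 0.26, cnn2, an actin-binding calponin, at 2.03 ± 0.41, the zinc transporter gene slc39a3 at 2.08 ± 0.59, and rprm3, of the Reprimo family, at 2.23 ± 0.95. The tigarb row had the smallest spread of the 24.

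On the low side, the row furthest from 0 on its weakest array was annotated to cyp19a1b, the brain aromatase, which makes estrogen in radial glia. It read -2.71, -3.13, -3.31, -2.36, -2.38 and -3.08 on replicates 1 to 6. The row of melk, a kinase of dividing cells, read -2.29, -2.82, -2.56, -4.27, -2.58 and -2.84. Replicate 4 stood well below the other 5 there, which lay close together. The row of dlx4b, a Distal-less homeobox gene, read -2.32, -3.04, -2.91, -2.20, -2.78 and -3.57. The lowest mean of the 12 was that of slc66a3, a PQ-loop membrane protein gene, at -3.59 ± 1.02 (SD, n = 6).

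The remaining 8 low rows were annotated to genes of different roles. They included psmd3, of the proteasome lid, at -2.62 ± 0.54 (SD, n = 6), nup93, of the nuclear pore, at -2.90 ± 0.79, pam16, of the mitochondrial import motor, at -3.23 ± 0.89, and blzf1, a Golgi matrix protein, at -2.84 ± 0.59. The row of scarb2c, of the scavenger receptor class B family, was at -2.89 ± 0.64, and that of mybl2b, a Myb transcription factor of the cell cycle, at -2.59 ± 0.62. The row of tars1, the threonyl-tRNA synthetase, fell to -3.26 ± 0.88 while the second tars1 row was at 0.20 (adjusted p = 0.50 in limma). Of 3 rows of coro1ca, an actin-binding coronin, 1 fell to -2.58 ± 0.37, another rose to 0.78 (adjusted p = 0.00948) and the remaining row was at -0.44 (adjusted p = 0.0939). The rows of tars1 and of coro1ca did not move together.

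**Figure D3:**
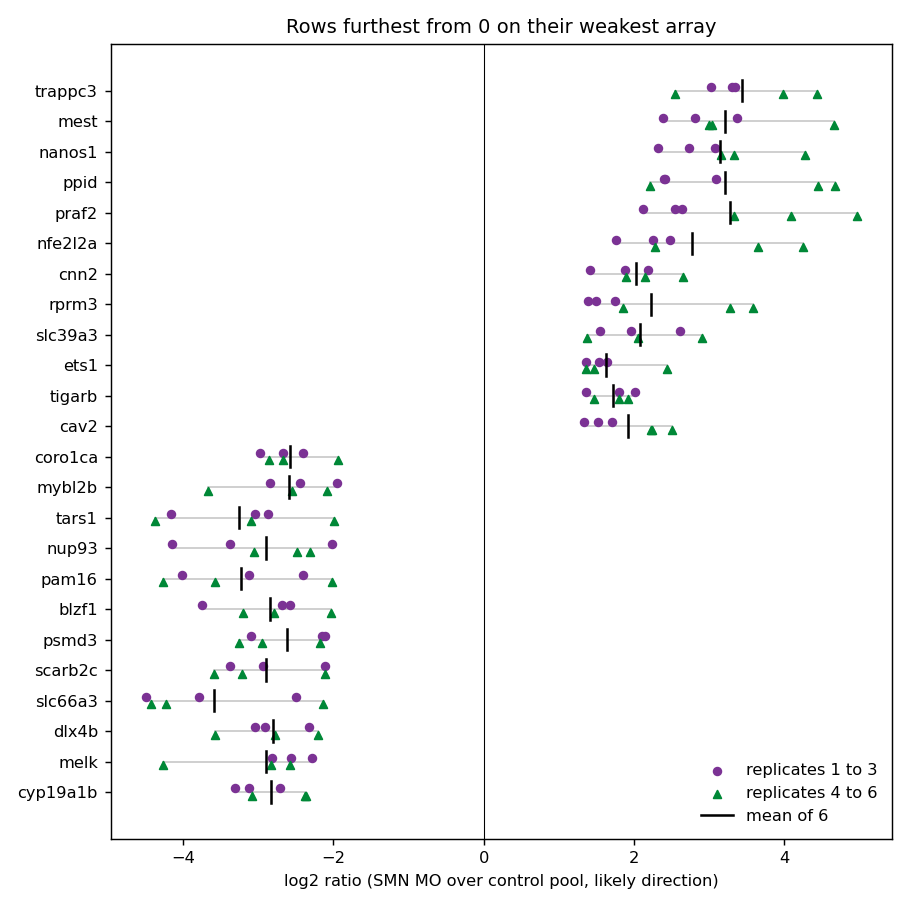
Log2 ratio on each of the 6 arrays for the 12 rows furthest above 0 and the 12 furthest below 0 on their weakest array, by annotated gene; circles are replicates 1 to 3, triangles replicates 4 to 6, bars the mean of 6. No value of the upper rows is under 1.33 and none of the lower rows is above -1.93.

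Which array lay furthest out was uneven. Replicate 5 was the furthest from 0 on 8 of the 12 highest rows, and replicate 6 on 6 of the 12 lowest and replicate 2 on 4. Replicate 4 was the nearest to 0 on 7 of the 12 lowest rows and replicate 1 on the other 5. Over all 4540 rows called lower, replicate 6 was furthest out on 36.7% and replicate 4 on 6.43%. Over the 4561 called higher, replicate 5 led on 30.3% and replicate 3 on 4.14%. Replicates 5 and 6 were the widest arrays in SD and replicates 3 and 4 the narrowest, and their part in these counts was not tested. When array spreads were made equal, 8023 rows passed, 3874 higher and 4149 lower. On 4 of the 24 rows the first and second set did not overlap, against 23.1% of all rows.

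Rows without a symbol reached as far. The highest by the same rule, row 5453770, was at 3.56 ± 0.84 (SD, n = 6) and row 5451742 at 3.48 ± 0.94, and the lowest, row 5454106, was at -2.95 ± 0.39 and row 5466506 at -3.35 ± 0.70. Of all rows that passed, 4141 had no symbol.

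The targeted transcript could not be examined, because the 1 row annotated to smn1 held no value on these arrays. For the other subunits of the SMN complex there were 7 rows, of gemin2, ddx20, gemin4, gemin5 and gemin8. No row was annotated to gemin6, gemin7 or, for the methylosome, clns1a, and the strap row held no value. The gemin2 row, annotated to SMN's direct binding partner, read -0.52, -0.42, -0.03, -0.51, -1.05 and -1.22 on replicates 1 to 6. All 6 were below 0, replicate 3 barely so, and the mean was -0.62 ± 0.44 (SD, n = 6; adjusted p = 0.0175 in limma). This call was lost on the first set alone (-0.32), without replicate 6 (mean -0.50), under the pooled block and when a change beyond 1.2-fold was asked for; the largest adjusted p over all alternatives was 0.265.

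The gemin4 and ddx20 rows, annotated to subunits that pair within the complex, split by row. The first gemin4 row read -2.13, -2.24, -2.03, -1.06, -0.53 and -2.33 (mean -1.72 ± 0.74; SD, n = 6; adjusted p = 0.000433 in limma). The second gemin4 row read 0.05, 0.03, -0.37, 0.03, -0.65 and -0.90 (mean -0.30 ± 0.41; adjusted p = 0.183), so that 1 of the 2 rows fell. The ddx20 rows, for the DEAD-box helicase of the complex, went opposite ways. One read 0.06, 0.96, 0.48, 0.44, 1.70 and 1.68 (mean 0.88 ± 0.68; adjusted p = 0.0118), and the other read -1.12, -1.84, -2.13, -0.77, -0.93 and -1.12 (mean -1.32 ± 0.54; adjusted p = 0.000601). All 6 arrays agreed in sign within each row, but the call of the higher row was lost under the pooled block and on the first set alone. Averaged over both rows ddx20 was at -0.22 (adjusted p = 0.358).

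The gemin5 row, annotated to the subunit that recognises small nuclear RNAs, had a mean of 0.09 ± 0.28 (limma adjusted p = 0.671; SD, n = 6), with 4 of 6 arrays above 0. The gemin8 row was at 0.24 ± 0.38 (adjusted p = 0.276), with all of replicates 1 to 3 above 0 and 2 of replicates 4 to 6 below. In the methylosome, prmt5, the methyltransferase of the Sm proteins, was at 0.44 ± 0.42 (adjusted p = 0.0633) and riok1, which brings substrates to it, at 0.41 ± 0.30 (adjusted p = 0.0544). The 2 rows of the adaptor gene wdr77 were at 0.06 and 0.35, and none of these 4 rows passed. In all, 1 of the 11 rows of the complex and the methylosome rose and 3 fell, beside 24.1% and 23.9% of all rows. Their median was 0.09 and that of all rows 0.08. Without replicates 4 to 6, and likewise under the pooled block, the count was 0 higher and 2 lower. Over all 18964 rows those fits called 2535 higher and 3472 lower, and 2456 higher and 3399 lower, respectively.

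**Figure D4:**
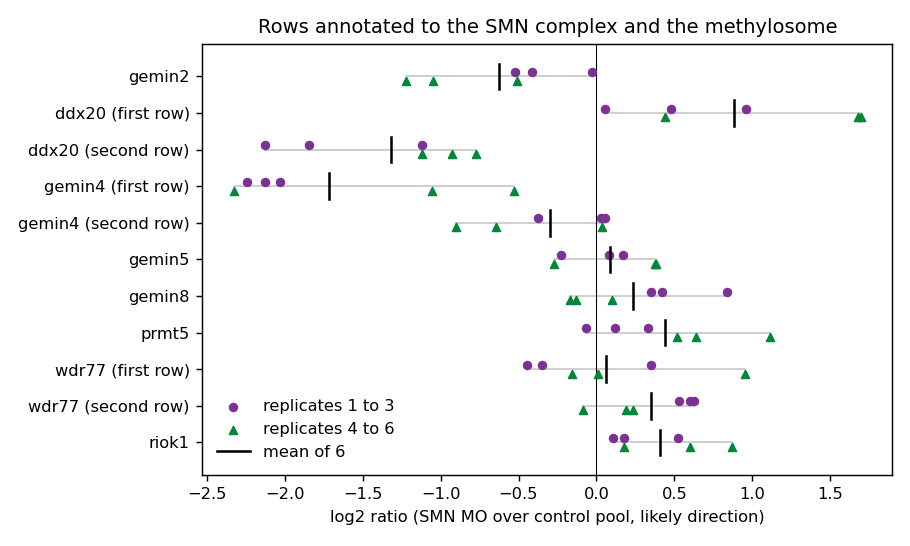
Log2 ratio on each of the 6 arrays for the 11 rows annotated to subunits of the SMN complex (gemin2, ddx20, gemin4, gemin5, gemin8) and of the methylosome (prmt5, wdr77, riok1). Circles are replicates 1 to 3, triangles replicates 4 to 6, bars the mean; the 2 ddx20 rows lie on opposite sides of 0.

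The other gene lists follow the path from small nuclear RNA to splicing and then the tissues of the embryo. They comprise 28 lists with 890 rows, of which 433 passed (48.7%), 201 higher and 232 lower. Under the pooled block 293 passed, 112 higher and 181 lower. Since symbols were not borne out, a count per list describes rows that share an annotation, and no set test was run. Most rows named from a list were taken by size of mean. Over all rows 770 lower and 30 higher rows reached a log2 size of 2, which tilts the examples toward falls whatever the list counts. Shares from the 6-array test are to be read beside 24.1% higher and 23.9% lower over all rows. Under the pooled block 2456 of all rows were higher and 3399 lower, and on the first set alone 2535 and 3472. List counts from those fits are to be read beside these, and counts at 1.2-fold beside the ones given earlier for that fit.

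The next list joins the Sm proteins, whose ring SMN places on small nuclear RNAs, with the related LSm proteins, which form rings on U6 and in messenger RNA decay that SMN does not place. Of 10 rows 5 fell and 1 rose, with a list median of -0.66. The lsm4 row read -1.51, -1.83, -1.81, -1.09, -0.99 and -1.35 (mean -1.43 ± 0.35; SD, n = 6; adjusted p = 0.000118 in limma). The snrpg row read -0.54, -1.16, -0.64, -1.17, -0.95 and -2.11 (mean -1.10 ± 0.56; adjusted p = 0.00202), and the snrpb row -1.20, -0.99, -0.78, -0.76, -1.10 and -2.01 (mean -1.14 ± 0.46). Replicate 6 was the lowest on both snrpg and snrpb. The snrpd1 and lsm7 rows fell to -1.12 ± 0.71 and -1.02 ± 0.28. The snrpe row rose, at 0.49 (adjusted p = 0.0438), and this was the call lost under the pooled block, on the first set alone, with array medians subtracted and at 1.2-fold, while 5 rows of the list were lower in each of these.

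Rows of the minor spliceosome, which removes the rare class of introns recognised by U11 and U12, were also mostly low. Of 7 rows 4 fell and 2 rose, with a median of -1.36. The snrnp25 row, for a U11 protein, read -1.45, -2.60, -2.60, -1.69, -2.66 and -3.23 (mean -2.37 ± 0.67; SD, n = 6; adjusted p = 6.37e-05 in limma). The rows of zmat5 and snrnp48, further U11/U12 proteins, were at -1.47 ± 0.42 and -1.46 ± 0.49. Of 2 pdcd7 rows, for the U11 protein that bridges to U12, 1 fell to -1.36 ± 0.49 and the other was at 0.39 (adjusted p = 0.0522). The rows of rbm41 and zcrb1 rose to 1.15 and 0.60. On each set alone and under the pooled block 4 of the 7 were lower.

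Among 22 rows for processing, export and import of small nuclear RNA 5 rose and 4 fell, with a median of 0.12. Under the pooled block 2 rose and 4 fell. The row of ints13, a subunit of the Integrator that trims these RNAs, fell to -2.09 ± 0.84 (SD, n = 6), that of wrap53, which guides RNAs to Cajal bodies, to -1.04 ± 0.35, and those of ice1 and ell, of the little elongation complex, to -1.37 ± 0.40 and -1.31 ± 0.47. The second ell row was at -0.21 and did not pass (adjusted p = 0.220 in limma). Both rows of kpnb1, the importin beta that carries the particles into the nucleus, rose, at 0.63 and 0.69. The coilin row (coil) was at 0.11 and the snurportin row (snupn) at -0.04.

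Rows of the major spliceosome went both ways. Of 70 rows 14 rose and 17 fell, with a median of -0.10, while under the pooled block and at 1.2-fold 7 rose and 17 fell. The lowest were those of prpf6, a scaffold of the tri-snRNP, at -2.45 ± 1.12 (SD, n = 6), bcas2, of the Prp19 complex, at -2.29 ± 0.86, txnl4a, a small protein of U5, at -2.02 ± 0.61, and snu13a, which binds U4, at -1.89 ± 0.50. On prpf6 replicates 5 and 6 were the lowest, at -3.45 and -4.17, and replicate 1 the highest, at -1.21. The highest row of the list was a ppie row, at 1.18 ± 0.38, while the other ppie row was at -0.10 and did not pass. Of 55 rows of SR and hnRNP proteins, which choose splice sites, 11 rose and 13 fell, with a median of 0.09. Among the rises were the rows of hnrnpa0a, the highest of this list, at 1.37 ± 0.39 and of hnrnpc at 1.11 ± 0.64. Each was above 0 on all 6 arrays. Among the falls were srsf11 at -2.58 ± 0.72, tra2b at -2.26 ± 0.50 and srsf1b, whose 2 rows fell to -1.82 and -0.47. The tra2b row had all 6 arrays between -2.82 and -1.44.

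Rows of genes that have been linked to SMN in motor axons passed in shares near those of all rows. Of 21 rows 5 rose (23.8%) and 4 fell (19.0%), beside 24.1% and 23.9% of all rows. The list median was 0.07, and under the pooled block 5 rose and 2 fell. Rows of coro1ca, at -2.58, -0.44 and 0.78 as described above, belong to this list too. The nrn1a row, for the neurite growth factor neuritin, fell to -2.84 ± 0.98 (SD, n = 6), between -4.03 and -1.60 on the 6 arrays. The chodl row, for chondrolectin, a lectin of motor neurons, read 1.72, 2.22, 1.17, 0.95, 2.21 and 1.82 (mean 1.68 ± 0.53; adjusted p = 0.00014 in limma), all high. The row of chp1, a calcineurin-related calcium-binding protein, rose to 1.21 ± 0.31. The row of zpr1, the zinc finger partner of SMN, was at 0.07 and that of tmem41b, the gene known as stasimon, at 0.16, and neither passed.

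In the motor neuron list 3 of 19 rows rose and 6 fell, with a median of -0.20. Under the pooled block 1 rose and 6 fell, and on the first set alone 0 rose and 4 fell. The row of isl2b, a LIM homeobox gene, read -1.35, -3.49, -2.19, -1.06, -1.18 and -1.95 (mean -1.87 ± 0.91; SD, n = 6). The row of its paralogue isl2a was at 0.63 ± 0.78 and did not pass (adjusted p = 0.0677 in limma). The row of nkx6.1, a homeobox gene of the ventral neural tube, fell to -1.07 ± 0.30, and that of cntn2, an axonal adhesion protein, to -0.98 ± 0.49. The row of onecut1, a transcription factor of developing neurons, rose to 0.69 ± 0.29, a call lost on the first set alone (adjusted p = 0.0623). The mnx1 row, for the transcription factor HB9, was at -0.24 and did not pass (adjusted p = 0.413).

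Rows of synaptic vesicle and release genes fell more often than they rose, 11 against 2 of 20, with a median of -0.68. The syt5b row, for a synaptotagmin, read -1.66, -2.05, -1.86, -0.93, -1.68 and -2.37 (mean -1.76 ± 0.48; SD, n = 6). The row of rab3ab, a vesicle GTPase, fell to -1.52 ± 0.71. Of 3 rows of vamp2, a vesicle SNARE, 2 fell, to -1.26 and -1.13, and the third was at -0.03. Of 4 rows of syt1a 2 fell, to -2.10 ± 2.03 and -0.73, while the others were at -0.03 and 0.09; the lowest row read -5.79 on replicate 1 and between -2.88 and -0.50 elsewhere, and its call was lost under the pooled block (adjusted p = 0.083). Under the pooled block 10 of the 20 fell and 0 rose.

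The neuromuscular junction list had 5 rows, and all passed. The row of musk, the receptor kinase that gathers acetylcholine receptors, read -1.86, -2.54, -2.03, -1.52, -2.36 and -2.27 (mean -2.10 ± 0.37; SD, n = 6; adjusted p = 5.9e-05 in limma). Rows of the receptor subunits chrne and chrna1 rose to 1.36 ± 0.57 and 1.09 ± 0.43, that of agrn, the nerve-derived organiser agrin, to 1.34 ± 0.83, and that of rapsn, the receptor scaffold, to 0.59 ± 0.43. The musk row lay below 0 and those of its partners above it. On the first set alone, and likewise under the pooled block, 3 rose and 1 fell.

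Pan-neuronal rows were lower in 11 of 31 and higher in 4, with a median of -0.15. That median was -0.29 on the first set and 0.04 on the second. Among the 4 rows that rose, neurod1 was at 1.49 ± 0.46 and rtn1b at 1.29 ± 0.31 (SD, n = 6), each above 0 on all 6 arrays. Under the pooled block 2 of the 31 rose and 8 fell. The tubulin row tubb2b fell to -2.52 ± 1.08 (SD, n = 6), the row of l1camb, an axonal adhesion molecule, to -2.49, between -3.64 and -0.89 on the 6 arrays, that of sncgb, a synuclein, to -2.27 ± 0.98 and 1 of 2 rows of elavl3, the HuC protein of early neurons, to -1.98 ± 0.88, the other at -0.34 (adjusted p = 0.0892 in limma). Of 45 neural progenitor rows 12 rose and 13 fell, with a median of 0.06, among them the progenitor factor sox2 at -1.83. The 2 rows of the Notch ligand dla passed in opposite directions, at -2.09 ± 0.71 and 1.03 ± 0.29. Under the pooled block 7 of the 45 rose and 9 fell. In glia and myelin 2 of 10 rose and 3 fell, and likewise under the pooled block. The 2 that rose were 1 of 2 mbpb rows and the erbb3b row, each above 0 on all 6 arrays. The erbb3b call was lost on the first set alone. Of 3 rows of the glutamate transporter slc1a3a 2 fell, to -1.53 and -0.72, while the remaining one was at -0.32 and did not pass.

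Of the sense organ lists, the retina had 8 of 37 rows higher and 12 lower, with a median of -0.07 that was 0.12 on the first set and -0.50 on the second. The row of opn1sw2, the blue cone opsin, read -3.98, -4.50, -5.06, -1.29, -1.59 and -4.42 (mean -3.47 ± 1.61; SD, n = 6). Replicates 4 and 5 were well above the other 4 there. That row was the lowest of the list, whose highest row mean was 1.03. In the lens 5 of 19 crystallin rows rose and 4 fell, with a median of 0.27. Among these structural proteins of the lens, cryabb rose to 0.76 and crygn1 to 0.67, while cryaa fell to -2.21 ± 0.58. Both rises lost their call on the second set alone. The cryabb call was also lost under the pooled block. The crygn1 call was also lost at 1.2-fold and with the spread shared with the Gemin2 MO arrays. The cryaa call was kept in every alternative. Under the pooled block the higher and lower counts were 3 and 9 in the retina and 1 and 2 in the lens.

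Of 76 skeletal muscle rows 23 rose and 14 fell, with a median of 0.19. Under the pooled block 14 rose and 7 fell. The row of myl13, a myosin light chain, fell to -2.39 ± 0.64 (SD, n = 6) and 1 of 2 rows of desma, the intermediate filament desmin, to -1.60 ± 0.37, while acta1b, an actin of muscle, rose to 1.32 ± 0.57. In the heart 3 of 15 rows rose and 3 fell, and under the pooled block 2 rose and 2 fell. The falls were the rows of cmlc1, tbx20 and myl7, at -0.69, -0.68 and -0.95. The rises were the rows of gata6 at 0.79, nkx2.7 at 0.54 and nkx2.5. The row of nkx2.5, a cardiac homeobox gene, read 0.85, 0.79, 0.89, 0.74, 0.87 and 0.81 (mean 0.82 ± 0.06), the 6 arrays nearly equal.

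The further tissue lists each held rows of both signs. In the erythroid list 7 of 23 rose and 6 fell, and of 6 rows annotated to the globin gene hbae1.1 2 rose, to 0.94 and 0.44, 1 fell to -1.12 and 3 did not pass. Under the pooled block 1 of the 23 rose and 4 fell. Globin genes are near-identical copies, and whether the hbae1.1 rows share signal was not tested. In liver, gut and pancreas 12 of 39 rose and 9 fell. Among the falls were the ceruloplasmin row cp at -2.69 ± 0.67 (SD, n = 6) and hnf4a, a hepatic nuclear receptor, at -2.19 ± 0.44. Among the rises, the prss59.1 row, the highest of this list, lay between 0.91 and 1.84 on the 6 arrays. Both serpina1 rows rose, to 0.94 and 0.42. The 2 rows of gcga, which encodes glucagon, passed in opposite directions, at -3.38 ± 1.15 and 0.97 ± 0.60. In skin and ionocytes 8 of 29 rose and 9 fell, and the 2 rows of the keratin krt91 passed at -2.46 and 0.43. In pigment cells and neural crest 7 of 23 rose and 4 fell, with tyr, the tyrosinase, at -1.17 ± 0.48 and 1 of 2 rows of pmela, a melanosome protein, at 1.09 ± 0.42. In cartilage, notochord and matrix 5 of 29 rose and 5 fell. Of 2 rows of the collagen gene col9a2 1 was at 1.38 ± 0.58, and both col9a1b rows passed, at -1.26 and 0.47. Under the pooled block higher and lower counts were 9 and 9 in liver, gut and pancreas and 3 and 8 in skin and ionocytes. They were 3 and 2 in pigment cells and neural crest and 2 and 4 in cartilage, notochord and matrix.

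Lists of general cell functions were likewise mixed. In the p53 response 5 of 20 rows rose and 6 fell. Both rows of mdm4, an inhibitor of p53, rose, to 1.94 ± 0.63 (SD, n = 6) and 0.52 ± 0.27, and those of baxb, a pro-apoptotic protein, and tp53inp1, a p53 target, fell to -2.08 ± 0.59 and -1.58 ± 0.33. Rows of ccng1 and btg2 also rose, to 0.70 and 0.69, while those of foxo3a and gadd45aa also fell, to -1.40 and -1.13. The mdm2 row was at -0.13 and did not pass. Of 75 ribosomal protein rows 15 rose and 20 fell, with rpl35a at -2.52 ± 1.15. Of 49 proteasome rows 7 rose and 12 fell, with psmb6 at -1.15 ± 0.29. Of 45 cell cycle rows 8 rose and 14 fell, with the replication factor mcm10 at -2.69 ± 0.88 and the 2 rows of cdk2, a cell cycle kinase, both lower, 1 of them at -1.15. Of 63 rows of oxidative phosphorylation 17 rose and 11 fell, and of 32 chaperone rows 6 rose and 8 fell. The medians of these 6 lists were between -0.05 and 0.15. Under the pooled block the higher and lower counts were 3 and 4 for p53 and 8 and 14 for ribosomal proteins. They were 2 and 7 for the proteasome and 6 and 13 for the cell cycle. For oxidative phosphorylation they were 12 and 7, and for chaperones 5 and 6.

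**Figure D5:**
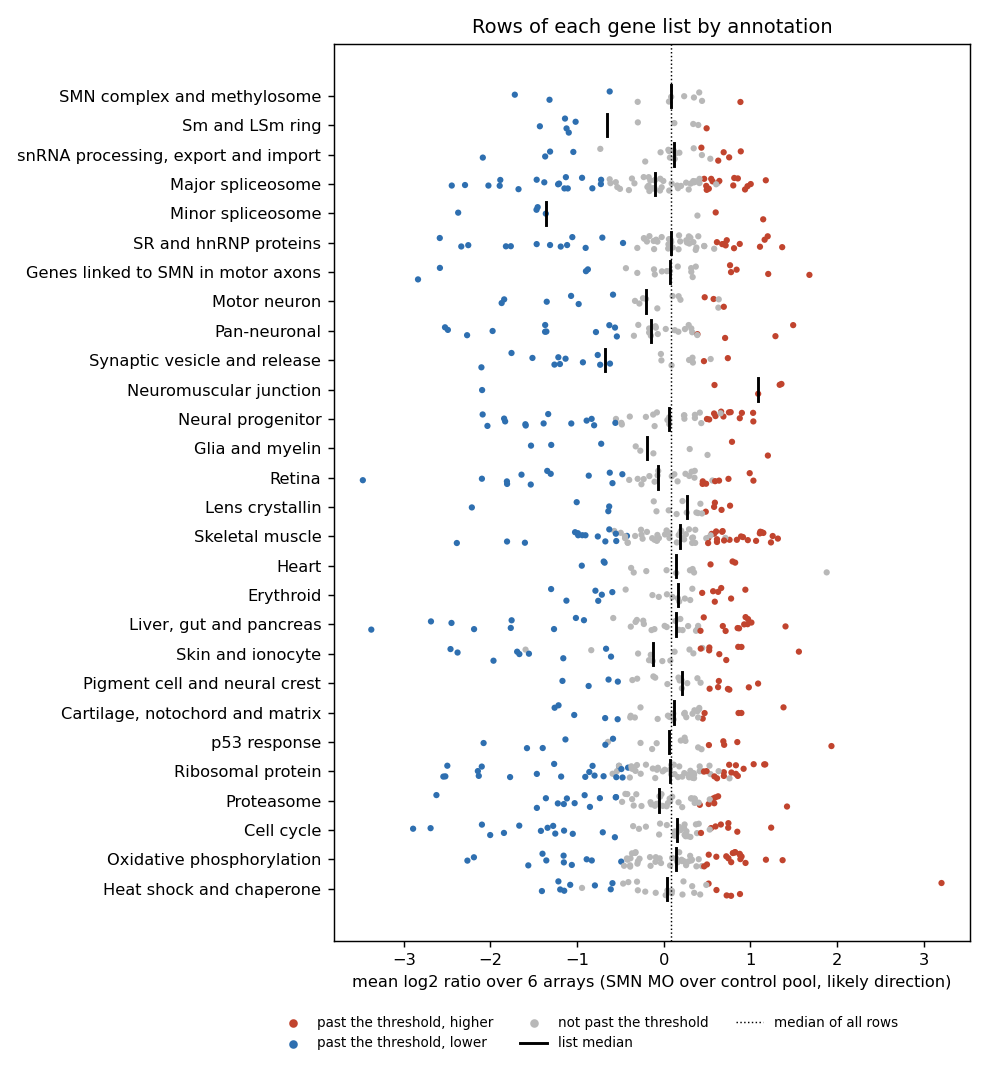
Mean log2 ratio over 6 arrays of every row in each of 28 gene lists, by annotation; red and blue points passed the threshold, grey points did not, black bars are list medians and the dotted line the median of all rows (0.08). The medians of the minor spliceosome (7 rows, -1.36), the Sm and LSm ring (10 rows, -0.66) and the synaptic vesicle list (20 rows, -0.68) lie furthest left of it. Other medians also lie left of it, among them that of the motor neuron list (-0.20). That of the 5 neuromuscular junction rows (1.09) lies furthest right.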

How the data were processed

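The data are log2 ratios, deposited by the authors as 1 table with a column per array; per the labels, each ratio sets Cy5-labelled MO RNA beside Cy3-labelled pooled control RNA. The scale was read as log2 because the largest values, in base 10, would exceed a scanner's range; a natural logarithm remains possible. Nothing in the sources used here states the background correction, normalization or centring, so values were used as deposited. Without intensities, precision is limited by the number of arrays.

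Symbols came from the platform annotation: 11724 of 23232 rows had 1 symbol and 0 had several. With the RefSeq gene table of GRCz12tu, used for names only, 3568 were current, 7978 were updated by synonym, 25 by accession, and 153 kept. Exact repeats were counted once in lists and named rows.

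Limma 3.58.1 in R 4.3.3 fitted an intercept to the 6 arrays (lmFit, eBayes). Scripts were tested on simulated data. Tables and plots used Python 3.11.15, pandas 2.3.3, NumPy 2.4.6 and matplotlib 3.10.9. Named rows were the 12 highest and 12 lowest by weakest array, up to 4 per list by largest mean and 2 unnamed rows per direction, all past the threshold with 1 sign on 6 arrays. The 4 rows furthest from 0 with opposite sets and the SMN complex rows were named whatever their test; any other row was chosen after its values were seen. The members, sets, lists and rules were chosen with earlier results of these data known. Alternatives covered blocks for the sets, single sets, left-out replicates, centring, scaling, 1.2-fold, array weights, robust and shared spread, and merged rows.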

Additional observations from a re-analysis of the deposited data

Results flagged for a closer look

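Each of the 143 named rows, and the 6 array medians and SDs, was examined for an array far from the other 5 by Dixon's ratio of gap to range. Chance alone gives about 1 in 20 for rows not chosen by their values, and most of these were so chosen. Of the 143 rows 3 exceeded the 95% critical value, fewer than that rate would give. The ets1 row reached 2.44 on replicate 5, where the next highest array was at 1.64 (ratio 0.743). The melk row fell to -4.27 on replicate 4, against a median of -2.70 (ratio 0.724). The snrpb row fell to -2.01 on replicate 6, against a median of -1.04 (ratio 0.651). All 3 rows kept their direction and their call in every alternative run, including without the array named, but they had been named for passing with 1 sign on all 6.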

How the results depend on the processing

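The count of 9101 rows past the threshold moved by more than 1.5 times under 3 alternatives: 5855 with the sets as a random block at the pooled correlation of 0.291, which was chosen after seeing the data because limma's own consensus (0.106, 7998 rows) came out low on simulated data with 2 blocks, 6007 on replicates 1 to 3 alone, and 5844 at 1.2-fold. Leaving out 1 replicate gave 7306 to 8685, and the lowest count was without replicate 6. The other alternatives gave 7229 (spread shared with the Gemin2 MO arrays) to 10005 (sets as a fixed term). The share of higher calls was 50.1%, 45.0% with array medians subtracted and 40.9% at 1.2-fold. Of 890 list rows 433 passed, and between 293 and 476 did so under these alternatives; merging rows by symbol left 701, of which 351 passed. Same-sign agreement of the sets (76.6%) ran from 73.0% without replicate 2 to 77.3%. Of 136 named rows that passed, 115 kept direction and call in every alternative run. Most of them were named for passing with 1 sign on these same 6 arrays. That choice partly sets the count, which does not measure how calls over all rows hold. Reversals occurred on replicates 4 to 6 alone for mfap1 (-1.45) and barhl2 (-1.42), whose sets oppose by choice, and on merging rows of opposite sign for ddx20 (-0.22) and hbae1.1 (-0.011). No paired analysis was possible because the comparison is of 1 group against 0 and each ratio already pairs SMN MO with control RNA. Signal over background could not be judged without intensities.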

Other observations

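Further genes spotted repeatedly had more than 1 set of values. The 7 shared rows of ccnd1, a G1 cyclin, were at -2.10 in one profile and -0.56 in the other, and both fell (limma adjusted p = 0.000332 and 0.0185). For vtg3, a vitellogenin, 7 rows shared -0.82 (adjusted p = 0.0042) and 7 shared 0.31 (adjusted p = 0.196). For cxcr4a, a chemokine receptor, 7 rows shared -0.74 (adjusted p = 0.0275) and 7 shared 0.56 (adjusted p = 0.0567). Within a profile the rows hold the same 6 values, so each counts once.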
